A study of Mus musculus with 12 samples.

Results

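The T-cell receptor segment genes are the gene rows of the 4 T-cell receptor loci: the variable (V) and joining (J) segments of the alpha, beta, gamma and delta chains and their constant-region (C) genes. They were picked by name alone from a table of RNA-seq read counts, as every V or J symbol of the 4 loci, the symbols that start with Tcrg-C, and Trac, Trbc1, Trbc2 and Trdc. This gave 208 of 33100 rows: 151 of the alpha locus (TRA; 98 V, 52 J, 1 C), 39 of the beta locus (TRB; 23 V, 14 J, 2 C), 9 of the delta locus (TRD; 6 V, 2 J, 1 C) and 9 of the gamma locus (TRG; 1 V, 4 J, 4 C). Most gamma V genes carry symbols that start with Tcrg-V and the rule leaves them out, so Trgv2 is the only gamma V segment counted. The study sequenced bulk RNA of mouse samples labelled as NK cells, sorted from spleen and from tumor. The 4 groups, with 3 libraries each, were spleen and tumor of wild-type (WT) mice and spleen and tumor of conditional-knockout (cKO) mice. In the cKO mice 1 gene was targeted. The labels give no strain, age, tumor model or Cre driver for any group and no animal for any library. Since nothing says that a group's libraries are separate animals, every p-value reflects the spread between these libraries alone, which may be technical.

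In a developing T cell, a V and a J segment (with a D segment between them in the beta and delta loci) are joined in the DNA, and the joined exon is spliced to a constant region. Alpha and beta chains form the receptor of most T cells, gamma and delta chains that of a smaller lineage, and all 4 chains reach the surface with the CD3 proteins. NK cells do not assemble a T-cell receptor, but J and C segments that were never joined to a V segment can be transcribed in lymphocytes from promoters within the loci. A read in a V segment and a read in a J or C segment thus need not come from the same kind of transcript. A clone of T cells uses the same V and J segments in all its cells, whereas a mixed population spreads its reads over many.

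The labelled cell type was checked against lists of markers. The levels of the 11 NK-cell genes, summed as CPM (counts scaled to library depth), were 1494 to 1953 in WT spleen, 1559 to 1899 in cKO spleen, 87.3 to 309.4 in WT tumor and 70.6 to 89.8 in cKO tumor. No tumor library exceeded 1.86 CPM of Ncr1 (the NKp46 receptor), against at least 90.8 CPM in spleen. The 6 macrophage genes summed to 28.5 to 50.1 CPM in WT spleen, 84.6 to 123.0 in cKO spleen, 3635 to 9464 in WT tumor and 671.2 to 1754 in cKO tumor. The 5 B-cell genes summed to at least 1544 CPM in spleen and at most 23.6 CPM in tumor. Library totals ran from 9542329 to 37118494 counts, of which the segment genes took 1851 to 20311 reads, or 0.0144% to 0.0818%. WT tumor replicate 2 had the most counts and the most C1qa (a macrophage complement gene; 823.2 CPM, against 286.6 and 418.3 in replicates 1 and 3), and cKO tumor replicate 3 had the least C1qa of its group (25.7 CPM, against 75.1 and 88.9).

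The sequences of the segments that carry the results are shown from the GENCODE vM21 transcripts of GRCm38, in which all 208 members were found with the same start and end. Each is read 5′ to 3′ on the strand of its gene, and for V segments only the last 120 bases are shown, since these run into the junction with the J segment. Capitals mark the letters TTNGNNNNNGGN in J segments, which hold the codons of the conserved J motif, and TANNNNTGN in V segments, which hold the conserved cysteine codon near the V end. Only the strand of the gene was searched, and for V segments only the last 40 bases. These letters occur in 59 of the 72 J segments (81.9%) and in 125 of the 128 V segments (97.7%). A match describes the sequence and nothing more. Trbv15, Trbj2-3, Trav13n-4, Trav13-3, Traj45, Trgv2 and Trgj2 are shown because they led their classes or nearly so by mean share in tumor. Trbj1-3 is shown because it led its class by mean share in spleen, and Trgj1 because it is a near copy of Trgj2.
Trbv15: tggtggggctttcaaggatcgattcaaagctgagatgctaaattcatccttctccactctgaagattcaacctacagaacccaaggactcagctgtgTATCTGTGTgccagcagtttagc
Trbj2-3: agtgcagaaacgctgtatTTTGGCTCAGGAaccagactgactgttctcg
Trbj1-3: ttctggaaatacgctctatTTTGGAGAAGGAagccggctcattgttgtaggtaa
Trav13n-4: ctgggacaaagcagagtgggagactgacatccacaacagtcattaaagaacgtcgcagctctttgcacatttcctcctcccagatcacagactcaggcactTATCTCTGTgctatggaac
Trav13-3: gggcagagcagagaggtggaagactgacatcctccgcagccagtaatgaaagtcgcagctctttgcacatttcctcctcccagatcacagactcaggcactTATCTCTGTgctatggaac
Traj45: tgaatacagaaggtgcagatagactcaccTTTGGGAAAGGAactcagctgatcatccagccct
Trgv2: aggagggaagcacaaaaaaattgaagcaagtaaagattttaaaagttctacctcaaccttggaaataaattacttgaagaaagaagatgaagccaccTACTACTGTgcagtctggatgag
Trgj2: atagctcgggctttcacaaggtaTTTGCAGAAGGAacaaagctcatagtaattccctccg
Trgj1: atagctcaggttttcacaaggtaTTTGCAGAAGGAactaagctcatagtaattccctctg

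Trbv15 lies on the plus strand at chr6:41141188-41141658, Trbj2-3 at chr6:41543223-41543271 and Trbj1-3 at chr6:41534323-41534376. Trgv2 (chr13:19336573-19337167), Trgj2 (chr13:19311245-19311304) and Tcrg-C2 (chr13:19304649-19307551) follow each other on the minus strand of chromosome 13. Trav13n-4 (chr14:53362267-53364106), Trav13-3 (chr14:53729558-53730074) and Traj45 (chr14:54172828-54172890) are on the plus strand of chromosome 14. Several members are near copies of others, and how the authors' counting treated a read that fits more than 1 of them is not given. Trav13-3 is 99.7% identical to Trav13d-3, with a shared run of 256 bases, and Trav13n-4 is 93.0% identical to Trav13-4-dv7. Trbc1 and Trbc2 are 95.6% identical, with a shared run of 259 bases, Tcrg-C1 and Tcrg-C2 are 94.5% identical, and Trgj1 and Trgj2 are 94.8% identical. Trbv15 has no such copy: it is 71.3% identical to Trbv16, and their longest shared run is 21 bases. Reads of near copies could be split or dropped, so values of the TRAV13 family, the TRBC pair and the gamma C and J genes are less certain than those of Trbv15.

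By group means, the TRA and TRG loci and the TRB V segments as a sum had more RNA in tumor than in spleen. The TRD locus and the TRB J segments had less. Trbv15 held most of the TRB V reads in tumor (86.1% on average in WT and 96.3% in cKO). Summed TRG C levels were 15.1 ± 3.60 CPM in WT spleen, 20.2 ± 0.261 in cKO spleen, 73.8 ± 6.69 in WT tumor and 181.2 ± 28.7 in cKO tumor (SD, n = 3 in each group, as in all group means given here). Summed TRB V levels were 6.86 ± 0.748, 14.9 ± 4.45, 49.8 ± 5.16 and 77.2 ± 11.8 CPM in the same order. Summed TRB J levels went the other way, at 44.1 ± 1.66, 39.9 ± 9.97, 12.99 ± 6.27 and 7.74 ± 1.10 CPM. Summed TRD V levels were 20.9 ± 3.76, 18.1 ± 3.15, 2.13 ± 2.01 and 0.761 ± 0.377 CPM. These sums include all 208 members, each of which had a read in at least 1 library, whereas tests were possible for the 42 members that passed the filter on low counts. In bulk RNA, fewer cells of a type and less RNA per cell cannot be told apart.

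**Figure D1:**
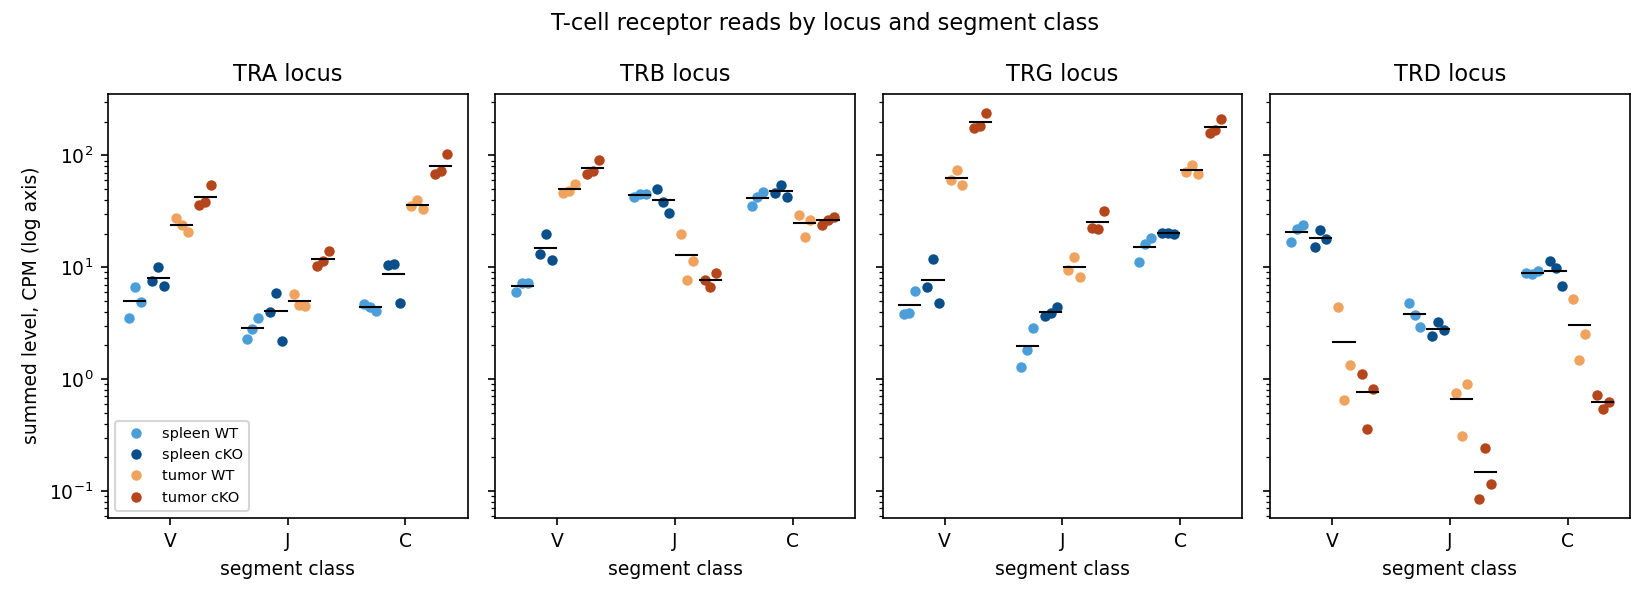
Summed level of the V, J and C genes of each T-cell receptor locus in each library, in CPM on a log axis, with points for the 3 libraries of a group and a bar for their mean. The tumor libraries sit above the spleen libraries for TRB V (means of 49.8 and 77.2 against 6.86 and 14.9 CPM) and TRG C (73.8 and 181.2 against 15.1 and 20.2 CPM) and below them for TRB J and all 3 classes of TRD.

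The 42 tested members do not stand for the rest, since a member can pass the filter through the group where it is high. They comprised 12 of 151 TRA genes, 18 of 39 TRB genes, 5 of 9 TRD genes and 7 of 9 TRG genes. Between tumor and spleen in WT, 12 members were higher in tumor and 11 lower, 54.8% of those tested, where a call means an adjusted p under 0.05 by edgeR's quasi-likelihood F-test with Benjamini-Hochberg adjustment. Of all genes tested 62% were called, 33.9% higher and 28.1% lower. The median log2 fold change was 0.19 over the members tested and 0.12 over all genes. In cKO, 15 members were higher in tumor and 17 lower (76.2% of those tested), against 60.5% of all genes called, 31.7% higher and 28.8% lower. The median was 0.05 over the members and 0.07 over all genes. Calls in both directions were found among the TRB genes. The TRA genes called were all higher in tumor in WT, and in cKO all but Trav13-4-dv7 were. That lower call was lost in 9 of the 12 runs that left out 1 library. The gamma genes called were all higher in tumor and the delta genes called all lower.

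Trbv15, a V segment of the beta locus, had 0 reads in each WT spleen library and 4, 10 and 3 reads in cKO spleen replicates 1, 2 and 3. It had 614, 1589 and 802 reads in WT tumor and 1508, 1192 and 2247 in cKO tumor. As levels these were 35.7, 44.8 and 48.3 CPM in WT tumor and 64.4, 71.7 and 87.0 CPM in cKO tumor. No tumor library overlapped any spleen library. Against a floor of 3 counts over the 3 WT spleen libraries (0.081 CPM), Trbv15 was at least 530.4-fold higher in WT tumor (edgeR adjusted p = 4.92e-08). In cKO its log2 fold change of tumor over spleen was 7.31 ± 0.38 (SE; edgeR adjusted p = 5.38e-08).

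Trbv15 also took most reads of its class in every tumor library. Of the TRB V reads it held 77.8% in WT tumor replicate 1 (95% Wilson interval 74.8% to 80.6%), 93.7% in replicate 2 (92.4% to 94.8%) and 86.9% in replicate 3 (84.6% to 88.9%). In cKO tumor it held 94.9% (93.7% to 95.9%), 97.8% (96.8% to 98.5%) and 96.1% (95.3% to 96.9%). All 3 cKO tumor libraries lay above all 3 WT tumor libraries. Such intervals and floors cover counting error only, and since both mates of a read pair appear to be counted they are too narrow. In WT spleen no segment dominated: Trbv16 led with 26.9% ± 6.15, followed by Trbv13-2 with 18.2% ± 11.6, and 0 of 253 TRB V reads were of Trbv15, which allows a share of up to 1.19%. In cKO spleen Trbv15 held 3.03% ± 1.74. Trbv16 was called lower in tumor in cKO, on 20, 69 and 49 reads in spleen and 12, 2 and 4 in tumor. Trbv13-1 and Trbv13-2 were called lower there too. The calls of Trbv13-1 and Trbv13-2 were each lost in 3 of the 12 runs that left out 1 library. The effective number of TRB V segments (the inverse of the summed squared shares, which is 1 when a single segment takes all reads) was 6.59 ± 2.65 in WT spleen, 6.69 ± 0.498 in cKO spleen, 1.37 ± 0.253 in WT tumor and 1.08 ± 0.0322 in cKO tumor. The number of TRB V segments with any read was not lower in WT tumor, at 15 to 19 against 8 to 13 in WT spleen. In cKO it was 9 to 16 in tumor and 13 to 15 in spleen. This number depends on depth, and the tissues differed in it. TRB V reads per library were 789 to 1696 in WT tumor and 77 to 97 in WT spleen, and 1219 to 2337 and 163 to 199 in cKO.

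**Figure D2:**
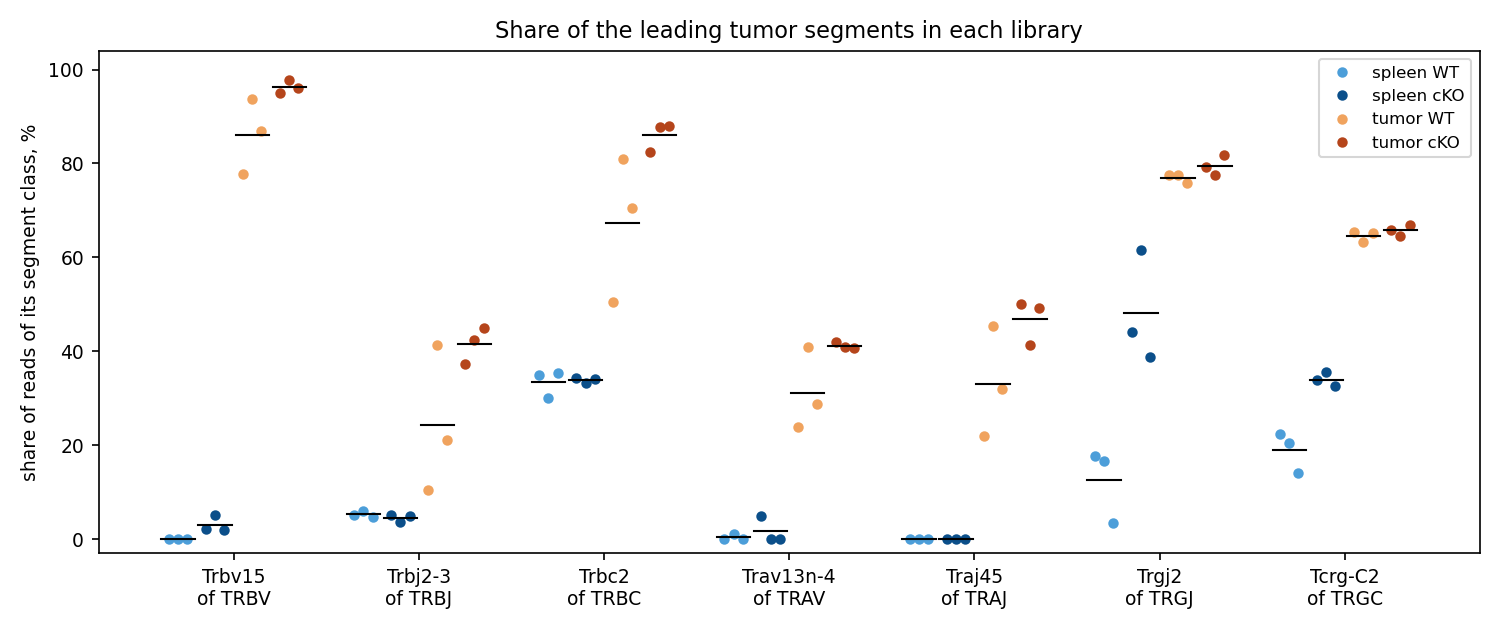
Share, in percent, of the reads of its segment class that 7 leading segment and constant genes took in each library; points are libraries and bars are group means. Trbv15 held 77.8% to 97.8% of TRB V reads in tumor and at most 5.03% in spleen, while the 3 WT tumor libraries spread more widely than the cKO tumor libraries for Trbv15, Trbj2-3, Trbc2, Trav13n-4 and Traj45.

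The TRB J segments lie in 2 clusters, each ahead of its own constant gene. In spleen the first cluster had most of the J reads, 68.3% to 72.4% in WT and 66.7% to 70.8% in cKO. In tumor its share was 62.3%, 45.8% and 53.2% in WT replicates 1, 2 and 3 and 35%, 23.4% and 10.9% in cKO. Trbj1-3, the first-cluster J segment with the most WT spleen reads, had 126, 140 and 90 reads in WT spleen, 153, 94 and 99 in cKO spleen, 46, 42 and 31 in WT tumor and 19, 8 and 12 in cKO tumor. The tissues did not overlap, and the log2 fold change of tumor over spleen was −2.34 ± 0.35 in WT (edgeR adjusted p = 7.40e-05) and −3.95 ± 0.39 in cKO (1.97e-06). Trbj1-1, Trbj1-2, Trbj2-1 and Trbj2-2 were also lower in tumor in both genotypes, with log2 values from −2.16 to −3.12 in WT and from −3.86 to −5.53 in cKO. Trbj2-2 did not pass in WT without WT spleen replicate 1 (adjusted p = 0.0824) or WT tumor replicate 3 (0.0556). Trbj2-6 was called lower in tumor in WT (log2 −2.44 ± 0.85, edgeR adjusted p = 0.0236), and this call was lost without WT spleen replicate 1 (0.0667), WT tumor replicate 1 (0.0852) or WT tumor replicate 2 (0.0729).

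Trbj2-3, in the second cluster, was not among the J segments called lower in tumor. It had 29, 36 and 22 reads in WT spleen, 35, 14 and 21 in cKO spleen, 36, 112 and 40 in WT tumor and 67, 47 and 103 in cKO tumor. Its levels of tumor and spleen overlapped in WT (log2 0.14 ± 0.38, edgeR adjusted p = 0.765), and in cKO the difference did not pass (log2 0.82 ± 0.38, 0.0793). Its share of TRB J reads was 5.28% ± 0.716 in WT spleen, 4.53% ± 0.775 in cKO spleen, 24.3% ± 15.7 in WT tumor and 41.5% ± 3.94 in cKO tumor. WT tumor replicate 2, at 41.3%, lay among the cKO tumor libraries, and replicates 1 and 3, at 10.5% and 21.1%, lay below them. In those replicates Trbj1-4 led the TRB J segments instead, with 20.8% and 22.1%. The balance of V to J reads moved as well. There were 0.142 to 0.162 TRB V reads per TRB J read in WT spleen, 0.26 to 0.518 in cKO spleen, 2.31 to 6.26 in WT tumor and 8.83 to 11 in cKO tumor, and the 4 groups did not overlap.

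**Figure D3:**
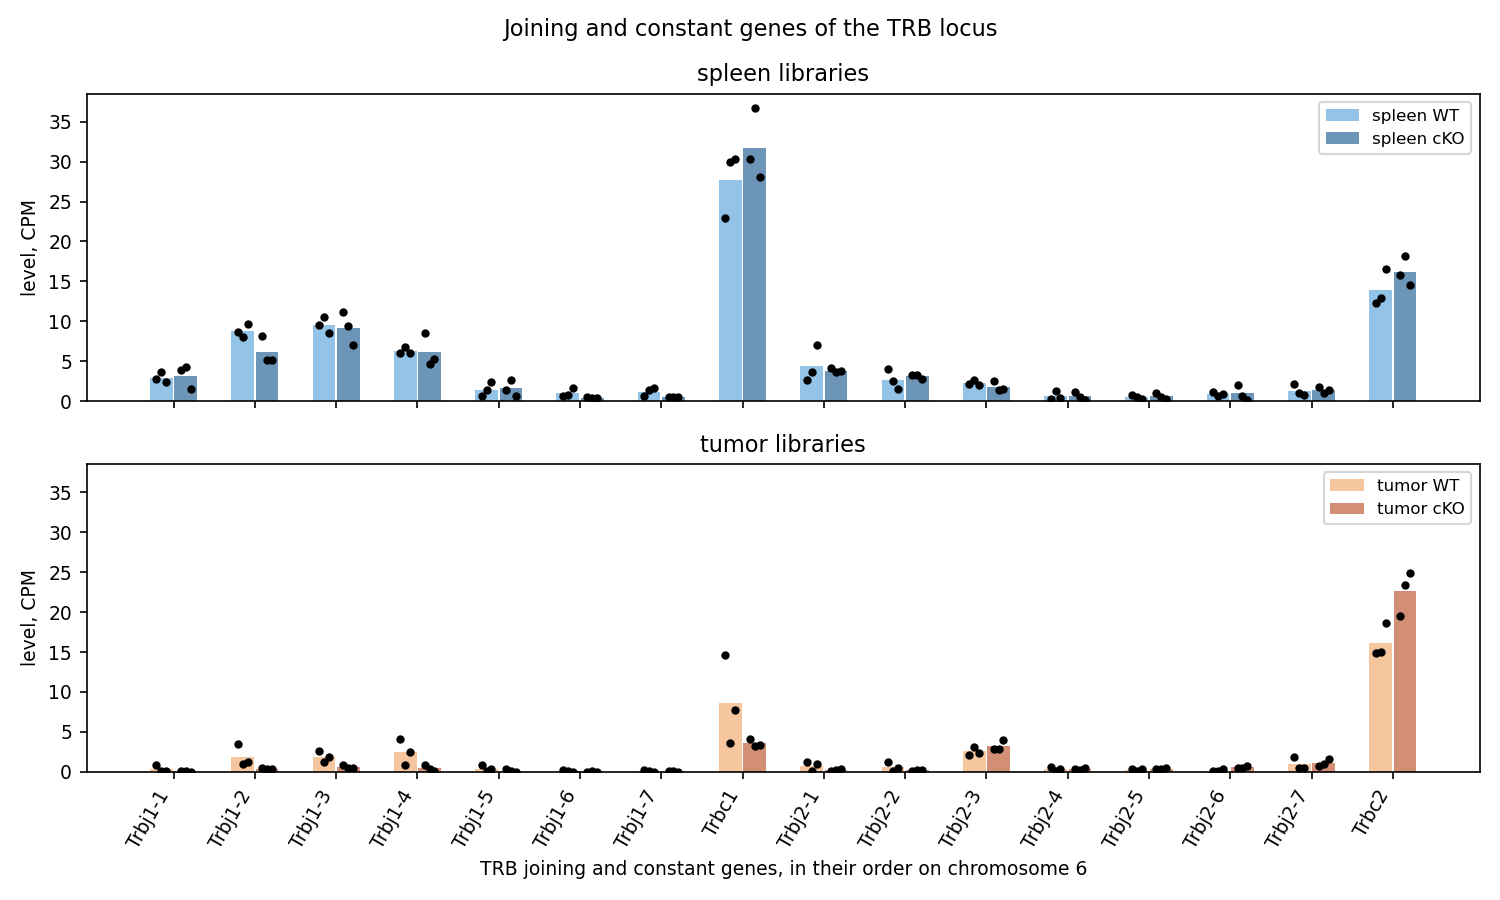
Level of each TRB joining and constant gene in CPM, in their order along chromosome 6, for spleen (top) and tumor (bottom); bars are means of 3 libraries and points the libraries. Trbj1-2, Trbj1-3, Trbj1-4 and Trbc1 stand high in spleen (Trbj1-3 at 8.50 to 10.5 CPM in WT) and lower in tumor, where Trbj2-3 and Trbc2 stand above their neighbours.

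Of the constant genes of the beta chain, Trbc1 was lower in tumor and Trbc2 was not. Trbc1 was at 22.9, 30.0 and 30.3 CPM in WT spleen, 30.3, 36.7 and 28.1 in cKO spleen, 14.6, 3.55 and 7.77 in WT tumor and 4.14, 3.25 and 3.41 in cKO tumor. It was lower in tumor in WT (log2 −1.70 ± 0.37, edgeR adjusted p = 0.00170) and in cKO (−3.13 ± 0.40, 2.55e-05), with no overlap of the tissues. Trbc2 was at 12.3, 12.9 and 16.5 CPM in WT spleen, 15.8, 18.2 and 14.6 in cKO spleen, 14.8, 15.0 and 18.6 in WT tumor and 19.5, 23.4 and 24.9 in cKO tumor. Its tissues overlapped in WT (log2 0.22 ± 0.18, edgeR adjusted p = 0.322). In cKO it was higher in tumor (0.48 ± 0.18, 0.0367), a call lost without cKO spleen replicate 1 (0.0906) or 3 (0.115) or cKO tumor replicate 2 (0.0855) or 3 (0.111). Trbc1 held 64.7% to 69.9% of the TRBC reads in the spleen libraries, 49.6%, 19.1% and 29.5% in WT tumor replicates 1, 2 and 3, and 12% to 17.5% in cKO tumor.

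Trac, the only alpha constant gene, was at 4.70, 4.37 and 4.06 CPM in WT spleen, 10.6, 10.7 and 4.76 in cKO spleen, 35.5, 40.03 and 33.1 in WT tumor and 68.1, 72.4 and 103.2 in cKO tumor. It was higher in tumor by 3.04 ± 0.28 on the log2 scale in WT (edgeR adjusted p = 1.05e-06) and by 3.23 ± 0.27 in cKO (5.68e-07). The tissues did not overlap. Traj45, an alpha J segment, had 0 reads in all 6 spleen libraries, 22, 74 and 24 in WT tumor and 120, 78 and 179 in cKO tumor. It was at least 19.8-fold higher in WT tumor and at least 70.1-fold higher in cKO tumor than the floor of its spleen group. Traj45 took 33.1% ± 11.7 of the TRA J reads in WT tumor and 46.9% ± 4.85 in cKO tumor, or 66.7% and 79.0% when only J segments that passed the low-count filter were counted. In spleen, 0 of 104 TRA J reads in WT and 0 of 144 in cKO were of Traj45, which allows up to 2.88% and 2.08%. Traj18, the J segment of the invariant NKT-cell receptor, held 18.8% ± 6.95 of TRA J reads in WT spleen and 0.778% ± 0.694 in WT tumor, on 19 and 2 reads in all.

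Among the alpha V segments, 2 of the TRAV13 family, Trav13n-4 and Trav13-3, were called higher in tumor in both genotypes. Trav13n-4 had 0, 1 and 0 reads in WT spleen, 5, 0 and 0 in cKO spleen, 113, 345 and 99 in WT tumor and 355, 261 and 568 in cKO tumor. Its ratio of tumor to spleen in WT, on 557 reads against 1, was 298 with a 95% counting interval of 53.3 to 11790. It held 31.2% ± 8.72 of TRA V reads in WT tumor and 41.2% ± 0.704 in cKO tumor. Trav13-3, a near copy of other members of that family, had 255 reads in WT tumor against 0 in WT spleen, at least 42.1-fold higher, and 556 in cKO tumor against 2 in cKO spleen, a ratio of 159 (43.8 to 1316). Every tumor library held 0.434 to 0.495 Trav13-3 reads per Trav13n-4 read. The 2 segments are 89.0% identical, with a shared run of 69 bases. Whether the 2 rows count the same transcripts was not tested. Trav17, Trav19 and Trav20 were also called higher in tumor in both genotypes. Trav20 was at least 8.58-fold higher in WT and at least 30.8-fold higher in cKO, and Trav17 was at least 21.3-fold higher in cKO, where spleen had no read of either. The call of Trav17 in WT was lost without WT tumor replicate 2 (adjusted p = 0.0634), which held 59 of its 68 WT tumor reads. In spleen the leading alpha V segment had few reads: Trav13-4-dv7 led in WT with 9.48% ± 6.55 on 19 reads. In cKO spleen, Trav11d, a copy of the V segment used by invariant NKT cells, held 25.5%, 4% and 2.11% in replicates 1, 2 and 3, with 26 of its 32 reads in replicate 1. Trav13-4-dv7 held 5.88%, 18% and 2.11% there, more than Trav11d in replicate 2 and as much in replicate 3. Trav13-4-dv7, also of the TRAV13 family, was called lower in tumor in cKO (log2 −2.99 ± 1.21, edgeR adjusted p = 0.0476), on 26 reads in spleen and 6 in tumor, with libraries that overlapped. That call held only in the runs without WT spleen replicate 3, cKO spleen replicate 3 or WT tumor replicate 2 (0.0509 to 0.313 in the other 9).

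Levels of different genes can be compared only per length, and were so compared for the constant genes and for Trgv2, Trbv15 and Trav13n-4. On the authors' deposited RPKM scale, which also divides by gene length, cKO tumor held 424.3 ± 74.9 of Trgv2, 209.5 ± 32.7 of Trbv15, 136.0 ± 23.3 of Tcrg-C2, 90.6 ± 21.2 of Trac, 48.9 ± 4.77 of Tcrg-C1, 42.5 ± 9.11 of Trav13n-4 and 34.1 ± 4.40 of Trbc2. Trac, Tcrg-C2 and Trbv15 are neighbours in that order whose mean ± SD ranges do not meet, whereas those of Trav13n-4 and Tcrg-C1 do. In WT spleen the order of the constant genes was another: Trbc1 had 37.5 ± 5.44 RPKM, Trbc2 20.4 ± 3.24, Tcrg-C4 10.1 ± 1.72, Trac 4.75 ± 0.381, Tcrg-C2 3.10 ± 0.50 and Trdc 2.34 ± 0.0727.

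Trgv2 had 50, 52 and 65 reads in WT spleen, 90, 119 and 67 in cKO spleen, 1029, 2645 and 910 in WT tumor and 4110, 3054 and 6214 in cKO tumor. Its levels were 3.79, 3.92 and 6.14 CPM in WT spleen, 6.60, 11.9 and 4.76 in cKO spleen, 59.8, 74.6 and 54.8 in WT tumor and 175.5, 183.6 and 240.7 in cKO tumor. All tumor libraries lay above all spleen libraries. The log2 fold change of tumor over spleen was 3.78 ± 0.31 in WT (edgeR adjusted p = 7.20e-07) and 4.71 ± 0.32 in cKO (1.46e-07). Trgj2, the J segment between Trgv2 and Tcrg-C2 on the chromosome, had 3, 4 and 1 reads in WT spleen, 22, 24 and 24 in cKO spleen, 127, 339 and 103 in WT tumor and 418, 283 and 670 in cKO tumor. It was higher in tumor by 5.13 ± 0.40 on the log2 scale in WT (edgeR adjusted p = 2.56e-07) and by 3.42 ± 0.31 in cKO (1.04e-06). The 4 groups of Trgj2 did not overlap.

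Tcrg-C2 was at 2.50, 3.31 and 2.55 CPM in WT spleen, 6.90, 7.22 and 6.46 in cKO spleen, 46.9, 51.4 and 44.7 in WT tumor and 104.9, 110.2 and 142.7 in cKO tumor. The 4 groups did not overlap, and tumor exceeded spleen by 4.09 ± 0.18 on the log2 scale in WT (edgeR adjusted p = 2.86e-09) and by 4.12 ± 0.17 in cKO (2.08e-09). Tcrg-C1, its near copy, was at 0.835 to 4.63 CPM in spleen, 13.9 to 17.0 in WT tumor and 40.3 to 48.4 in cKO tumor, and was higher in tumor by 2.60 ± 0.40 in WT (edgeR adjusted p = 9.75e-05) and 3.78 ± 0.40 in cKO (4.78e-06). Tcrg-C4, which is only 64.8% identical to Tcrg-C1, behaved otherwise. It was at 9.80 ± 1.73 CPM in WT spleen, 10.1 ± 0.693 in cKO spleen, 10.9 ± 1.66 in WT tumor and 18.4 ± 4.82 in cKO tumor. Its tissues overlapped in WT (log2 0.16 ± 0.23, edgeR adjusted p = 0.560), and it was higher in tumor in cKO (0.86 ± 0.23, 0.00602). Tcrg-C3 had 20 reads in the 12 libraries and was not tested. Tcrg-C4 took 65.5% ± 4.84 of the gamma C reads in WT spleen, 50.3% ± 4.08 in cKO spleen, 14.7% ± 0.911 in WT tumor and 10.1% ± 1.78 in cKO tumor. Tcrg-C2 took 19% ± 4.4, 34% ± 1.58, 64.6% ± 1.28 and 65.7% ± 1.08, so that Tcrg-C4 led in spleen and Tcrg-C2 in tumor in both genotypes. The leading J segment did not divide by tissue. Trgj4 led in each WT spleen library (72.4% ± 10.1) and Trgj2 in each tumor library (76.9% ± 1.02 in WT, 79.6% ± 2.15 in cKO). In cKO spleen Trgj2 led in replicates 1 and 2 and Trgj4 in replicate 3, with means of 48.1% ± 11.9 and 32% ± 20.3. Trgj1 was called higher in tumor in cKO and not in WT (log2 2.01 ± 0.82, edgeR adjusted p = 0.0485), a call that was lost in 8 of the 12 runs that each left out 1 library: WT spleen replicate 1, any cKO spleen replicate, WT tumor replicate 3 or any cKO tumor replicate (adjusted p = 0.0508 to 0.151).

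The delta genes called between the tissues went the other way from the gamma genes called. Trdc, the only delta constant gene, was at 8.88, 8.66 and 9.26 CPM in WT spleen, 11.4, 9.82 and 6.75 in cKO spleen, 5.17, 1.47 and 2.53 in WT tumor and 0.726, 0.541 and 0.620 in cKO tumor. It was lower in tumor in WT (log2 −1.56 ± 0.39, edgeR adjusted p = 0.00380) and in cKO (−3.87 ± 0.45, 8.47e-06), and the tissues did not overlap. Trdv4, a delta V segment, held most TRD V reads in every group, with 76.4% ± 6.79 in WT spleen and 76.8% ± 13.3 in cKO spleen. It had 154, 243 and 192 reads in WT spleen, 163, 133 and 225 in cKO spleen, 39, 19 and 15 in WT tumor and 22, 6 and 14 in cKO tumor. It was lower in tumor in WT (log2 −3.75 ± 0.47, edgeR adjusted p = 1.59e-05) and in cKO (−4.44 ± 0.49, 6.02e-06). Trdv2-2 and the J segment Trdj1 were lower in both genotypes too, by log2 values from −2.61 to −4.35. Trdv5 was called lower in cKO and not in WT (log2 −5.10 ± 1.498, edgeR adjusted p = 0.0106), a call lost without cKO spleen replicate 2 (0.0662), which held 67 of its 90 reads there. Trdv5 overlaps Trdc on the opposite strand and Trdv2-2 overlaps another gene on the opposite strand. The strand setting of the counting is not given, so reads of such a pair cannot be told apart.

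The cKO and WT tumor samples were compared next. Of the 42 members tested, 11 were higher in cKO and 8 lower (45.2%), against 38% of all genes called, 16.4% higher and 21.6% lower. The median log2 fold change was 0.16 over the members tested and −0.12 over all genes tested, a shift of all genes that became 0.06 without composition factors. The members called higher were 5 gamma genes, 5 alpha genes and Trbv15. Those called lower were Trdc, Trdj1, Trbc1, Trbv16, 3 first-cluster J segments and Trav13-4-dv7. Of the 19 calls, 9 held in each of the 12 runs that left out 1 library: Tcrg-C1, Tcrg-C2, Trgj2, Trgv2, Trac, Trbj1-2, Trbj1-3, Trbj1-4 and Trdc. The count fell to 10 without WT tumor replicate 1, 11 without cKO tumor replicate 2 and 10 without cKO tumor replicate 3.

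Trgv2 rose 1.66 ± 0.27 on the log2 scale (edgeR adjusted p = 0.000625), Tcrg-C1 1.52 ± 0.35 (0.00490), Trgj2 1.39 ± 0.27 (0.00174) and Tcrg-C2 1.32 ± 0.15 (5.48e-05). In each of these genes all 3 cKO tumor libraries lay above all 3 WT tumor libraries. Tcrg-C4 rose by less, 0.75 ± 0.23 (edgeR adjusted p = 0.0204), and this call was lost without WT tumor replicate 1 or 3 or cKO tumor replicate 2 or 3 (0.062 to 0.0995). The shares of Tcrg-C2 in the gamma C reads overlapped between the groups, with 63.2% to 65.5% in WT and 64.6% to 66.8% in cKO. Tcrg-V4, a gamma V gene outside the rule, was at 9.71, 8.35 and 5.48 CPM in WT tumor and 20.8, 22.5 and 29.0 in cKO tumor, and rose by 1.62 ± 0.28 (edgeR adjusted p = 0.000685). It was at 0.923 to 1.81 CPM in spleen.

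Trac rose 1.17 ± 0.25 on the log2 scale (edgeR adjusted p = 0.00272), and Traj45 rose 1.78 ± 0.46 (0.0143), with no overlap of the groups. The alpha V segments Trav13n-4 (1.24 ± 0.43, edgeR adjusted p = 0.0373), Trav13-3 (1.26 ± 0.45, 0.0466) and Trav19 (1.83 ± 0.65, 0.0405) rose as well. The calls of these 4 segments depended on single libraries. Traj45 did not pass without WT tumor replicate 1 (0.0508) or cKO tumor replicate 3 (0.0764), and Trav13n-4 and Trav13-3 did not pass without WT tumor replicate 1 or 3 or any cKO tumor replicate (0.0618 to 0.149 and 0.0781 to 0.194). Trav19 did not pass without WT spleen replicate 1, WT tumor replicate 1 or 3 or cKO tumor replicate 2 or 3 (0.0521 to 0.13). Trbv15 rose 0.79 ± 0.25 (edgeR adjusted p = 0.0284), and did not pass without WT tumor replicate 1 (0.0909) or cKO tumor replicate 2 (0.0622) or 3 (0.101). The ratios between the genes that led in tumor differed between the groups as well. Trgv2 had 1.66 to 1.86 reads per Trac read in WT tumor and 2.33 to 2.58 in cKO tumor, whereas Trbv15 had 1.01 to 1.46 and 0.843 to 0.989. Neither ratio overlapped between the groups.

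Among the members that fell, Trdc fell by 2.24 ± 0.44 on the log2 scale (edgeR adjusted p = 0.00157), Trbj1-2 by 2.25 ± 0.50 (0.00356), Trbj1-4 by 2.47 ± 0.63 (0.00788) and Trbj1-3 by 1.66 ± 0.38 (0.00418). Their groups did not overlap. Within WT tumor, replicate 1 was the highest library for Trdc, Trbj1-2, Trbj1-3, Trbj1-4 and Trbc1. Trbc1 fell by 1.24 ± 0.38 (edgeR adjusted p = 0.0228), but WT tumor replicate 2 (3.55 CPM) lay within the range of cKO tumor (3.25 to 4.14 CPM). Without WT tumor replicate 1 the log2 value of Trbc1 was −0.62 (0.133), and the call was also lost without cKO tumor replicate 2 (0.0699) or 3 (0.0769). In a fit of the 6 tumor libraries alone, Trbc1 (0.0948) and Trbj1-4 (0.0535) did not pass. Trdj1, on 35 reads in WT tumor and 8 in cKO tumor, fell by 2.12 ± 0.66 (edgeR adjusted p = 0.0221) and did not pass without WT tumor replicate 3 or cKO tumor replicate 1 or 3 (0.0787 to 0.0928). Trbv16, on 79 and 18 reads, fell by 2.24 ± 0.70 (0.0234) and did not pass without WT tumor replicate 1 or 3 or cKO tumor replicate 2 or 3 (0.0633 to 0.0955). Trav13-4-dv7, on 50 and 6 reads with groups that overlapped (log2 −3.22 ± 1.19, edgeR adjusted p = 0.0476), did not pass in 8 of the 12 runs, those without WT spleen replicate 1 or 2, cKO spleen replicate 1, WT tumor replicate 1 or 3 or any cKO tumor replicate (0.0565 to 0.186), nor without composition factors (0.0591). Trdv4 did not pass (−0.92 ± 0.50, 0.166). Trbc2 did not pass either (0.49 ± 0.18, 0.0503), although its groups did not overlap. It did pass without composition factors (0.0114), by DESeq2 (0.0263) and without WT spleen replicate 3 (0.0415), WT tumor replicate 3 (0.0398) or cKO tumor replicate 1 (0.0439).

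**Figure D4:**
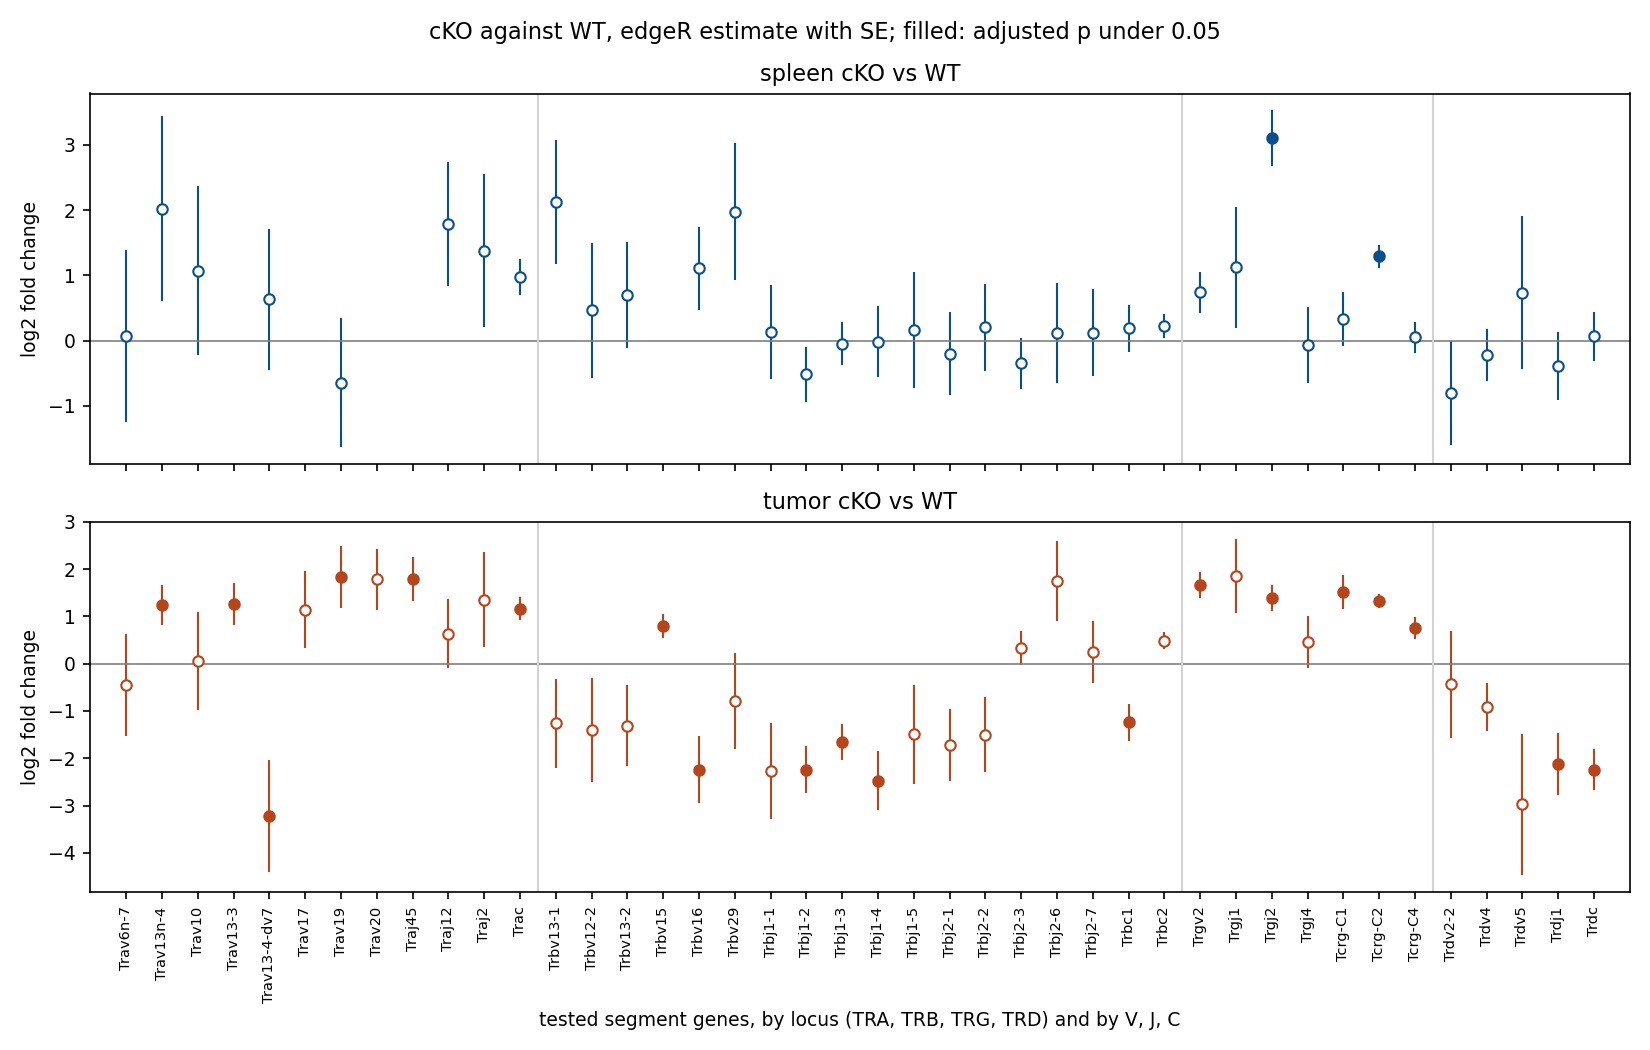
Log2 fold change of cKO over WT with its SE for the tested members in spleen (top) and tumor (bottom), by locus and by V, J and C; filled points passed at an adjusted p under 0.05 by edgeR, and 5 members without reads in a spleen group are not drawn in the top panel. In tumor the gamma genes lie above 0 and the first-cluster TRB J segments and the TRD genes below it, while in spleen Trgj2 (3.10) and Tcrg-C2 (1.29) are the filled points.

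Other cell types differed between the same tumor groups. All 6 macrophage genes were lower in cKO, with sums of 3635 to 9464 CPM in WT and 671.2 to 1754 CPM in cKO. Of the 11 NK-cell genes, 8 were lower and none higher, with sums of 87.3 to 309.4 and 70.6 to 89.8 CPM, and no group had Ncr1 or Klrb1c (the NK1.1 antigen) at 0. The part of these cells in the changes of the segment genes was not tested. A fit without the library richest in C1qa (WT tumor replicate 2) and the poorest of the tumor libraries (cKO tumor replicate 3) was added after the data were seen. In it Tcrg-C2, Trgv2, Trgj2, Trac, Trdc and Trbj1-3 still passed, whereas Traj45 (edgeR adjusted p = 0.0575), Trav13-3 (0.114), Trav19 (0.0927) and Trav13-4-dv7 (0.0563) did not. The libraries left still differed in C1qa, with at least 286.6 CPM in WT tumor and at most 88.9 in cKO tumor. This fit therefore does not remove the macrophage difference. WT tumor replicate 2 was also the lowest WT tumor library for Trdc (1.47 CPM) and for Trbj1-3. Leaving it out widens their difference from cKO, so their passing here says little about how stable those calls are. Without that library alone the count of calls was 26, against 19 in the main fit.

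In spleen, cKO differed from WT in 2 of the 42 members tested (4.76%), both higher, against 0.0297% of all genes called. At an unadjusted p under 0.05 there were 6 members, and 784 of all 16831 genes tested. Both called members lie in the Trgv2 cluster of the gamma locus. Trgj2 was higher by 3.10 ± 0.43 on the log2 scale, on 70 reads in cKO and 8 in WT, and Tcrg-C2 by 1.29 ± 0.18, on 257 and 104 reads (edgeR adjusted p = 0.0303 for both). Neither passed without any 1 of the 6 spleen libraries (0.0819 to 0.217), nor without cKO tumor replicate 1 or 2 (0.0532 to 0.0703), nor in a fit of the 6 spleen libraries alone (0.139 and 0.173). Trgv2, in the same cluster, overlapped between the groups (log2 0.74 ± 0.31, edgeR adjusted p = 1). The share of Tcrg-C2 in the gamma C reads was 14.1% to 22.4% in WT and 32.5% to 35.6% in cKO. Trbv15, with 17 reads in cKO and none in WT, was at least 5.57-fold higher than the floor and did not pass (edgeR adjusted p = 0.483). Trac did not pass either (log2 0.98 ± 0.28, 0.835), though it did without the low-count filter (0.00619). Its groups did not overlap, but cKO replicate 3, at 4.76 CPM, lay next to the highest WT library, at 4.70 CPM. Trbc1, Trbc2, Trdc, Tcrg-C1, Tcrg-C4 and Trdv4 overlapped between the groups, with log2 values from −0.22 to 0.33. The macrophage sums did not overlap either (28.5 to 50.1 CPM in WT and 84.6 to 123.0 in cKO), with 0 of the 6 genes called and 0 of the 11 NK-cell genes called by edgeR. Their part in these differences was not tested.

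Whether the cKO effect differed between the tissues was tested as an interaction. This called 5 members, in the fit of all 12 libraries all with a lower effect in tumor (11.9% of those tested), against 18.3% of all genes called, 7.68% with a higher effect in tumor and 10.6% with a lower one. Trdc differed by −2.30 ± 0.58 on the log2 scale (edgeR adjusted p = 0.0161): its log2 fold change was 0.06 in spleen and −2.24 in tumor. Trdc was the only 1 of the 5 that passed in each run that left out 1 library. Trbj1-3 differed by −1.61 ± 0.50 (edgeR adjusted p = 0.0396), Trbv16 by −3.35 ± 0.95 (0.0274) and Trgj2 by −1.71 ± 0.52 (0.0372). Trgj2 rose in both tissues, by 3.10 in spleen from 8 reads and by 1.39 in tumor. Trgj2 and Trbj1-3 were lost without composition factors (0.0577 and 0.0536) and without the low-count filter (0.0553 and 0.0584). Of the 12 runs that left out 1 library, Trbj1-3 passed only in those without cKO spleen replicate 3, WT tumor replicate 2 or cKO tumor replicate 1 (0.0677 to 0.102 in the others). Trgj2 passed only in those without WT spleen replicate 2, WT tumor replicate 3 or cKO tumor replicate 3 (0.0509 to 0.0985 in the others). Trbv16 was lost without any WT spleen replicate, cKO spleen replicate 2, WT tumor replicate 1 or 3 or cKO tumor replicate 2 or 3 (0.052 to 0.0795). The count of calls lay between 1 (without WT spleen replicate 3) and 8 (without WT tumor replicate 2). The fitted difference of Trbv15, −5.24 (edgeR adjusted p = 0.0281), depends on the small value given to a WT spleen group without reads and is no measure of size, and it was lost without any 1 of the WT spleen libraries (0.0584 to 0.0686). Calls were also gained. Trbc1 (−1.43, 0.0768) passed by DESeq2 (0.0383), without the low-count filter (0.00139), without WT tumor replicate 2 (0.00181) and without that library and cKO tumor replicate 3 together (0.00189). Tcrg-C1 passed with a higher effect in tumor without the low-count filter (log2 1.20, 0.0224) and without WT spleen replicate 1 (1.62, 0.0217). The difference of Tcrg-C2 was 0.03 ± 0.25 (0.965), and for Trac it was 0.19 ± 0.37 (0.776).

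The genes that work with the receptor were read from lists, whose counts for cKO against WT in tumor stand beside the 38% of all genes called (16.4% higher, 21.6% lower). In tumor, 3 of the 4 CD3 genes, which carry the receptor's signal, were higher in cKO and none lower, with sums of 179.2 to 241.7 CPM in WT and 351.8 to 500.9 in cKO. Cd3g was at 116.0, 82.8 and 115.2 CPM in WT tumor and 173.2, 231.4 and 273.6 in cKO tumor (log2 1.11 ± 0.25, edgeR adjusted p = 0.00387). Of 12 genes of proximal receptor signalling 7 were higher and 2 lower, and of 8 T-lineage factors 5 were higher and 3 lower. Bcl11b, needed for commitment to the T lineage, rose 2.28 ± 0.20 (edgeR adjusted p = 1.60e-05). The 3 factors that were lower were Foxp3, Zbtb7b and Runx3. From WT to cKO tumor, mean levels went from 25.4 to 11.5 CPM for Foxp3, 26.8 to 12.3 for Zbtb7b and 107.8 to 53.1 for Runx3. Of the 10 coreceptor and costimulation genes 1 was higher and 2 lower. Cd4 (log2 −0.13 ± 0.41, edgeR adjusted p = 0.829) and Cd8a (−0.19 ± 0.89, 0.893) overlapped between the groups, and no tumor library exceeded 13.3 CPM of Cd4 or 3.49 CPM of Cd8a. Of 8 listed genes of gamma-delta T cells 4 could be tested, with none higher and 1 lower, and of 4 listed genes of NKT and innate-like T cells 1 was lower. In spleen none of these lists had a gene called for cKO against WT by edgeR. Cd3d, Cd3e and Cd3g each had a log2 value from 0.56 to 0.71 there, with adjusted p from 0.985 to 1.

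Among the genes of receptor assembly, Dntt, the enzyme that adds bases at the junctions of joined segments, had 0 reads in all 6 spleen libraries. It was at 7.33, 7.39 and 3.62 CPM in WT tumor and 104.4, 40.04 and 75.3 in cKO tumor, a rise of 3.57 ± 0.43 on the log2 scale (edgeR adjusted p = 0.000511). Against the floors of spleen it was at least 75.5-fold higher in WT tumor and at least 920.1-fold higher in cKO tumor. Rag1 and Rag2, which cut the segments, and Ptcra, the surrogate alpha chain of early thymocytes, did not pass the low-count filter. In tumor Rag1 did not exceed 0.0775 CPM, Rag2 0.116 CPM or Ptcra 0.349 CPM. The levels of the D segment Trbd1 ranged from 0.472 to 1.36 CPM over the spleen libraries and from 0.0387 to 0.904 over the tumor libraries, and it did not pass in cKO tumor against WT (edgeR adjusted p = 0.117).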

How the data were processed

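Bulk RNA-seq of 12 libraries in 4 groups of 3 was used, grouped by the labels' tissue and genotype. The authors mapped reads to mm10 (GRCm38) with TopHat2 2.0.6, per the submitters' processing notes. How reads were counted (the program, its strand setting and its handling of reads that fit several places) is not given in the sources used here. Whole-number counts without normalization and RPKM values, which also divide by length and library total, were deposited by the authors per gene. Of the deposited counts from 1 to 49, 68.8% to 73.3% were even over all genes and 53.5% to 64.1% over the segment genes, as when both mates of a pair are counted. All 33100 count rows entered edgeR 4.0.16 (R 4.3.3): filterByExpr over the 4 groups left 16831 genes, TMM factors scaled the libraries, and a robust quasi-likelihood model with 1 mean per group was fitted to all 12. F-tests were two-sided, with Benjamini-Hochberg adjustment across the genes tested and a threshold of 0.05. CPM are counts scaled by the TMM-scaled totals. The scripts were tested on simulated counts.

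Levels, shares and ratios are descriptions without a test. Intervals of shares are 95% Wilson intervals. A group without reads was set against 3 counts over the group. Sequences and identities come from GENCODE vM21 transcripts, aligned with Biopython 1.88. Named are all constant-region members and all members called for cKO against WT or in the difference of those effects. Also named are up to 10 called members per direction for tumor against spleen, and the V segment of largest share per group. From each locus up to 3 V segments and the J segment with most reads are named, and from each list up to 4 genes. Other rows, such as Trbj2-3, Traj18, Tcrg-V4 and Trbd1, are given as examples. Traj18 (55 reads) was not picked by its reads, since Traj12 (103 reads) had more. The members and lists were chosen with earlier results of these data known. Alternatives were DESeq2 1.42.0, no composition factors, no filter, the compared libraries alone, a replicate block and leaving out libraries. The level of the targeted gene is not reported here, and it was not used to check genotypes.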

Additional observations from a re-analysis of the deposited data

Results flagged for a closer look

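In 5 members the effect of the knockout differed between tumor and spleen by the interaction test of edgeR. The effect in tumor minus that in spleen was −2.30 on the log2 scale for Trdc, −3.35 for Trbv16, −5.24 for Trbv15, −1.71 for Trgj2 and −1.61 for Trbj1-3. Trdc had 330 and 349 reads in WT spleen and cKO and 183 and 42 in WT tumor and cKO. Trbv16 had 67 and 138 reads in spleen and 79 and 18 in tumor. The value of Trbv15 rests on 0 reads in WT spleen and 17 in cKO spleen, against 3005 and 4947 in tumor, and gives no size. Trgj2 was higher in cKO in both tissues, from 8 to 70 reads in spleen and from 569 to 1371 in tumor. Trbj1-3 had 356 and 346 reads in spleen and 119 and 39 in tumor.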

How the results depend on the processing

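Of 5 counts of called members, those for tumor against spleen moved by less than 1.5 times under every alternative run, with 23 to 27 calls in WT and 29 to 37 in cKO when single libraries were left out. For cKO against WT in tumor the count of 19 became 10 to 26 when single libraries were left out. In spleen the count of 2 became 4 without a low-count filter, 0 with only the libraries compared, 0 with the replicate block and 0 to 2 when single libraries were left out. The count of 5 differences between the tissues became 3 without composition factors, 10 without a low-count filter, 11 when WT tumor replicate 2 and cKO tumor replicate 3 were left out together, and 1 to 8 when single libraries were left out. The causes were not tested. No value changed sign while called.

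With the replicate number as a block, Trav13n-4 (adjusted p = 0.0555), Trav19 (0.0557) and Trav13-3 (0.0793) were lost in tumor, Tcrg-C2 and Trgj2 in spleen (0.0586 each) and Trgj2 in the difference (0.0569). The labels do not say whether equal numbers mark paired samples. Correlations of same-numbered libraries were −0.088 to 0.111, and some libraries, though not all, correlated best with their own number. With 3 libraries per group these values cannot decide whether the samples were paired. By DESeq2, Trbc2 passed in tumor (0.0263) and Trbc1 in the difference (0.0383). Without the low-count filter, Trac passed in spleen (0.00619) and Trbc1 (0.00139) and Tcrg-C1 (0.0224) in the difference. Apart from the counts of called members, 1851 values were unchanged, 151 no longer passed, 12 newly passed and 17 moved. The unchanged values mix tests of single members, which kept direction and side, with descriptive class shares and sums, which have no test. The values that moved were descriptive, most of them TRA and TRB shares and sums taken over tested members alone. When single libraries were left out, the 17 descriptive values of each run were unchanged. That says little about stability, since the mean of a group of 3 keeps most of its data in such a run. Depth limits the segments with few reads: only 42 of 208 members could be tested.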
